A study of Mus musculus with 48 samples.

Results

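Egr1, Egr2 and Klf10 are zinc finger transcription factors that neurons switch on quickly after activity. Their levels were followed here in mouse hippocampus and amygdala after a learning protocol, in every probe set whose platform annotation named 1 of these genes and no other. This gave 5 probe sets for 3 genes, out of 10833 probe sets that named a single gene and 8251 gene symbols. Egr1 was represented by 98579_at and by the dim 161802_i_at, Egr2 by 102661_at, and Klf10 by 99602_at and 99603_g_at, which were designed from the same transcript sequence and are not independent measurements.

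EGR1 and EGR2 belong to the early growth response family, whose members bind GC-rich sites through C2H2 zinc fingers and are transcribed within minutes of synaptic activity, without new protein synthesis. EGR1, also called Zif268 or Krox-24, is widely used as a marker of activated neurons in memory studies, and EGR2, or Krox-20, is also required for hindbrain segmentation and for myelination by Schwann cells. KLF10, first described as TIEG1, a TGF-beta inducible early gene, is a Krüppel-like factor with the same kind of zinc finger and acts mainly as a repressor.

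The series title names associative and nonassociative learning, and the question put to each gene was whether its level differed between 3 arms. The arms are labelled NH, CS and FC, abbreviations that the labels leave unexplained and that are read here as naive home cage, conditioned stimulus alone and fear conditioned. Hippocampus was measured in 10 NH, 8 CS and 8 FC arrays, and amygdala in 10 NH, 6 CS and 6 FC arrays, 48 arrays in all on 1 mouse platform. The labels give no strain, age, sex, genotype, shock setting or time after training, and leave the numbers in the array titles unexplained. In all 22 amygdala titles the number starts with the batch digit, and the rest reads as 2 numbers. For 9 amygdala arrays at least 1 of these is the title number of a hippocampal array of the same arm, 17 hippocampal arrays in all. Amygdala arrays may therefore hold RNA pooled from 2 animals and hippocampal arrays that of single animals, which is a reading of the titles and not stated. The p-values reflect array-to-array variation, part of which may be technical.

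About 8 µg of total RNA per array was used for the biotinylated target, and each array belonged to 1 of 7 labelled processing batches. The hippocampal CS arrays were spread as 3, 4 and 1 over batches 4, 5 and 6, and the FC arrays as 2, 4 and 2. Of the hippocampal NH arrays, 2 shared batch 4, 2 shared batch 6, and the other 6 made up batch 7. For amygdala, batch 2 combined 3 NH with 3 CS and 4 FC arrays, batch 3 combined 1 NH with 3 CS and 2 FC, and the remaining 6 NH arrays stood alone in batch 1. Every difference from NH below was fitted within batches, and so rests on 4 of the 10 NH arrays of each tissue. Array pairs within a tissue correlated at 0.982 or above over all probe sets, and no pair was identical. Of 9 hippocampal neuron markers, 5 (Neurod6, Dsp, Prox1, Lct and Man1a) ranked higher in every hippocampal array than in any amygdala array, 2 (Calb1 and Wfs1) ranked higher in every amygdala array, and 2 overlapped. Of the amygdala and piriform markers, Tac2 and Cdh13 ranked higher in every amygdala array and Rspo2 in every hippocampal array. Median intensity was between 76.5 and 80.8 in the hippocampal arrays and between 52.3 and 56.1 in the amygdala arrays, so levels were set against each other only within a tissue.

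All 4 member probe sets bright enough to be tested were higher in FC than in NH amygdala. The brighter Egr1 probe set and the Egr2 probe set passed the test, and those of Klf10 did not. The dim Egr1 probe set, left out of this test, was lower in FC than in NH amygdala (-0.20 on the log2 scale). It did not pass in a fit over all probe sets. A call means an adjusted p under 0.05 (limma, two-sided, Benjamini-Hochberg over the 7453 probe sets left after the dimmest 40% were set aside). In amygdala FC against NH, 2 of the 4 member probe sets tested were called, both higher, where 0.0939% of all probe sets tested were called. In amygdala CS against NH none of the 4 was called, with 0.0134% called over all probe sets, and in FC against CS none was called, with 0% over all. In hippocampus 3 member probe sets were tested. None was called in CS against NH (0.0134% over all), in FC against NH (0.0134% over all) or in FC against CS (0% over all). At an unadjusted p under 0.05 (limma), the member probe sets past the line in hippocampus were 1 of 3 in CS against NH, 3 of 3 in FC against NH and 2 of 3 in FC against CS, where 1.45%, 2.27% and 0.765% of all probe sets were. In amygdala they were 4 of 4 in CS against NH, 4 of 4 in FC against NH and 0 of 4 in FC against CS, where 3.92%, 5.15% and 1.23% of all probe sets were. In these bulk tissue samples, a change in the number of cells that carry a transcript and a change in RNA per cell cannot be told apart.

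**Figure D1:**
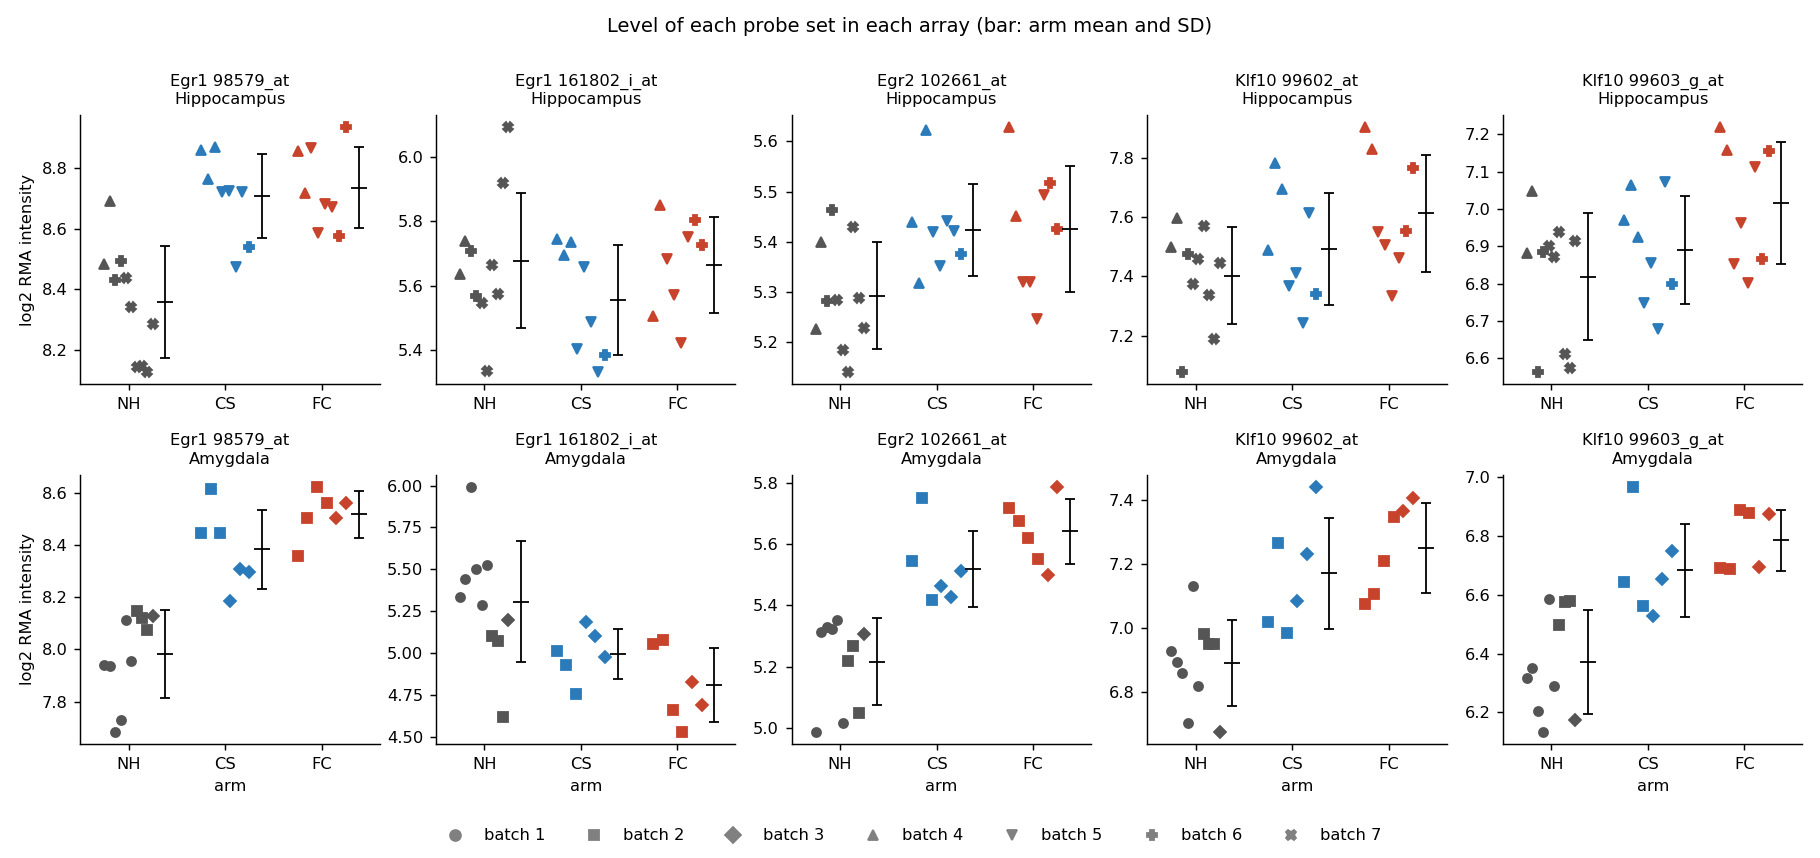
Log2 RMA intensity of each of the 5 probe sets (columns) in each array of hippocampus (top) and amygdala (bottom), by arm, with the marker giving the processing batch and the bar the arm's mean and SD. In amygdala all 6 CS and all 6 FC arrays lie above all 10 NH arrays for Egr1 98579_at and Egr2 102661_at. How many of all probe sets separate like this was not counted. The levels are not adjusted for batch, and 6 of these NH arrays are from batch 1, which holds no CS or FC array. The dim Egr1 161802_i_at has its lowest arm mean in FC in amygdala and in CS in hippocampus.

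The Egr1 probe set 98579_at was bright, between the 85.4th and 93.2nd percentile of probe sets in every array of both tissues. Its log2 level in amygdala had a lowest, median and highest value of 7.69, 8.01 and 8.15 in NH. The same 3 values were 8.19, 8.38 and 8.61 in CS. In FC they were 8.36, 8.53 and 8.62. All CS and FC arrays were above the highest NH array, and CS and FC overlapped each other. These levels are not adjusted for batch, and 6 of the NH arrays are from batch 1, which holds no CS or FC array. The share of all probe sets that separate in this way was not counted. Egr1 rose in FC against NH by 0.41 ± 0.0755 (SE) on the log2 scale, a 1.33-fold increase with a 95% interval of 1.19 to 1.48 (limma adjusted p = 0.0195). The difference was 0.40 within batch 2 and 0.40 within batch 3. CS was higher than NH by 0.29 ± 0.0769, which did not pass (limma adjusted p = 0.942), with 0.39 in batch 2 and 0.13 in batch 3.

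The Egr1 call was close to the threshold. The log2 difference moved little when any 1 of the 16 arrays in batches 2 and 3 was left out, ranging from 0.38 to 0.45. The adjusted p rose above the threshold in 7 of the 16 fits. These were the fits without FC replicates 2103113, 25589, 3144146 or 3148150, or without NH replicates 28892, 29798 or 299141, and the highest limma adjusted p among them was 0.104. Within batch 2 alone the limma adjusted p was 0.298, and over all alternatives it ran from 1.5e-05 to 0.298.

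In hippocampus, Egr1 98579_at had a lowest, median and highest log2 level of 8.13, 8.39 and 8.69 in NH. In CS these were 8.47, 8.72 and 8.87. In FC they were 8.58, 8.70 and 8.93. The arms overlapped, with 6 of 8 CS arrays and 4 of 8 FC arrays above the highest NH array. Within batches CS exceeded NH by 0.20 ± 0.0805 and FC exceeded NH by 0.25 ± 0.0795, and neither passed (limma adjusted p = 0.9999 for both). Both values were positive in batch 4 (0.24 and 0.20) and in batch 6 (0.08 and 0.29). The 6 NH arrays of batch 7, which holds no CS or FC array, lay between 8.13 and 8.44, below the other NH arrays except for 1 overlap. With no batch term they enter the comparison, and the differences became 0.35 and 0.38 (limma adjusted p = 0.0379 and 0.0186), against a range over all alternatives of 0.0379 to 0.9999 for CS and 0.0186 to 0.9999 for FC.

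The second Egr1 probe set did not follow the first. 161802_i_at fell below the intensity filter in both tissues, with mean log2 levels of 5.64 in hippocampus and 5.09 in amygdala against limits of 5.79 and 5.21. It was therefore read from a fit over all 12422 probe sets, in which 0.00805% were called in hippocampus CS against NH, in hippocampus FC against NH and in amygdala CS against NH, 0.0644% in amygdala FC against NH, and 0% in both FC against CS comparisons. In amygdala its lowest, median and highest log2 level was 4.62, 5.31 and 5.99 in NH, 4.76, 5.00 and 5.19 in CS, and 4.53, 4.76 and 5.08 in FC, so that the arms overlapped. Its FC minus NH difference there was -0.20 ± 0.123 (limma adjusted p = 0.940), opposite in sign to 98579_at. It passed without the batch term (-0.50, limma adjusted p = 0.0488) and with array weights (-0.32, limma adjusted p = 0.0496), against a range over all alternatives of 0.0488 to 0.9999. In hippocampus its FC minus NH difference was 0.07 ± 0.110 (limma adjusted p = 0.9999). Across the 22 amygdala arrays, after each batch's mean was subtracted, the 2 Egr1 probe sets correlated at -0.54, and across the 26 hippocampal arrays at 0.00 when rounded. The Egr1 result rests on 98579_at alone.

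Egr2 was dim. Its probe set lay between the 27.3rd and 37.1st percentile in hippocampal arrays, below the filter there (mean log2 level 5.37 against a limit of 5.79), and between the 35.8th and 51.1st in amygdala arrays, just above it (5.42 against 5.21). Of the 3 members only Egr2 has a promoter in the RefSeq table used here (GRCm38.p6), with 5 annotated starts, and the 250 bases before the third are shown because they hold the elements through which activity genes are classically induced. They lie on the plus strand at chr10:67537619-67537868. Capitals mark a CArG box, the binding site of serum response factor, and the short cAMP response element TGACG on either strand.

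Egr2 promoter: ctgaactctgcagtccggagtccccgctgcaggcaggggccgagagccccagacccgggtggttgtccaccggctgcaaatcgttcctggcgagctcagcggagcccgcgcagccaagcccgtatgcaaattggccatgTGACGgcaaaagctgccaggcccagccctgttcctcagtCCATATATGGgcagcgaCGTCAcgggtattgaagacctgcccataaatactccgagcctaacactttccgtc

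The CArG box, searched as CC, 6 bases of A or T, and GG on both strands, began 72 bases before that start and read CCATATATGG. The short element TGACG was found 111 bases before the start on the plus strand and 55 bases before it on the minus strand. The windows of the other two starts downstream overlap this one and hold the same elements, and the separate window of the second start holds another CArG box, CCTTTTTTGG. Over all 32851 windows of the same length in the table, 1.47% held a CArG box and 17.8% held TGACG. The full element TGACGTCA (1.55% of windows) and the EGR site GCGNGGGCG (4.7%) were in none of the 5 Egr2 windows, and the GC box GGGCGG (32.7%) was in the first and second windows. Of 30 other immediate early genes with a promoter in the table, 20 held TGACG and 0 held a CArG box in these 250 bases. Counted in the same way, by gene rather than by window, 19.8% of all 27025 genes held TGACG and 1.62% held a CArG box. Base composition was not matched, and a match of letters is not a measured binding site.

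In amygdala, the lowest, median and highest log2 level of Egr2 was 4.99, 5.29 and 5.35 in NH. In CS these were 5.42, 5.49 and 5.75. In FC they were 5.50, 5.65 and 5.79. As for Egr1, every CS and FC array was above every NH array, and CS and FC overlapped. Here too the levels are not adjusted for batch, and the share of all probe sets that separate was not counted. Egr2 rose in FC against NH by 0.43 ± 0.0820, a 1.35-fold increase with a 95% interval of 1.20 to 1.52 (limma adjusted p = 0.0231), with 0.46 in batch 2 and 0.34 in batch 3. CS exceeded NH by 0.31 ± 0.0835 without passing (limma adjusted p = 0.942), with 0.39 in batch 2 and 0.16 in batch 3. Leaving out single arrays gave 0.38 to 0.48 for FC minus NH. The call was lost in 7 of the 16 such fits, those without FC replicates 21927, 23543, 25589 or 3148150 or NH replicates 28892, 29798 or 299141, with adjusted p up to 0.140 (limma). It was also lost in the fit of the FC and NH arrays alone (0.43, limma adjusted p = 0.0574), and the range over all alternatives was 0.000715 to 0.376.

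In hippocampus the Egr2 values were 5.14, 5.28 and 5.46 in NH, 5.32, 5.42 and 5.62 in CS, and 5.25, 5.44 and 5.63 in FC, again as lowest, median and highest. The arms overlapped. CS exceeded NH by 0.13 ± 0.0715 and FC exceeded NH by 0.13 ± 0.0706, and neither passed among all 12422 probe sets (limma adjusted p = 0.9999 for both). FC minus CS was 0.00 when rounded, with a 95% interval of -0.11 to 0.11.

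The Klf10 probe sets lay between the 66.5th and 82nd percentile (99602_at) and between the 55.8th and 73.6th (99603_g_at). In amygdala, 99602_at had a lowest, median and highest log2 level of 6.68, 6.91 and 7.13 in NH. In CS these were 6.98, 7.16 and 7.44. In FC they were 7.08, 7.28 and 7.40. The NH and FC arrays overlapped, with 4 of 6 FC arrays above the highest NH array. For 99603_g_at all 6 were (6.69 to 6.89 against 6.13 to 6.58 in NH), again in levels not adjusted for batch. Again the share of all probe sets that separate was not counted. FC minus NH was 0.35 ± 0.0894 for 99602_at and 0.34 ± 0.0871 for 99603_g_at, and neither passed (limma adjusted p = 0.402 and 0.422). By unadjusted p these stood 11th and 12th of 7453 probe sets, after Egr1 at 6th and Egr2 at 7th. CS minus NH was 0.26 ± 0.0911 and 0.25 ± 0.0887 (limma adjusted p = 0.942 for both).

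The Klf10 differences in amygdala were uneven between batches. For 99602_at, FC exceeded NH by 0.22 in batch 2 and by 0.71 in batch 3, and CS exceeded NH by 0.13 and 0.58. Batch 3 holds a single NH array, replicate 3142153, which was the lowest of all 10 NH arrays at 6.68. Without it, FC minus NH was 0.23 for 99602_at and 0.25 for 99603_g_at, and CS minus NH was 0.12 and 0.15. The same array read Egr1 at 8.13 and Egr2 at 5.31, inside the range of the other NH arrays. Estimated array weights took both Klf10 probe sets past the threshold (0.48 and 0.42, limma adjusted p = 0.000621 and 0.000797), but under those weights 911 probe sets in all were called against 7 with equal weights. Leaving out the batch term also did so (0.36 and 0.41).

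In hippocampus, 99602_at had a lowest, median and highest log2 level of 7.08, 7.45 and 7.60 in NH, 7.24, 7.45 and 7.78 in CS, and 7.33, 7.55 and 7.90 in FC. The arms overlapped throughout. Klf10 99602_at had the largest hippocampal FC minus NH value of the member probe sets, 0.30 ± 0.0872, while 99603_g_at, at 0.23 ± 0.0904, was below the 0.25 of Egr1 98579_at. Neither Klf10 probe set passed (limma adjusted p = 0.9999 for both). Of the comparisons of FC with CS, the hippocampal Klf10 values were the only ones among the members whose 95% interval lay above 0, at 0.15 (0.01 to 0.29) for each probe set, without passing over all probe sets (limma adjusted p = 0.9999 for both). Within batches 4, 5 and 6 the value for 99602_at was 0.21, 0.05 and 0.32.

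**Figure D2:**
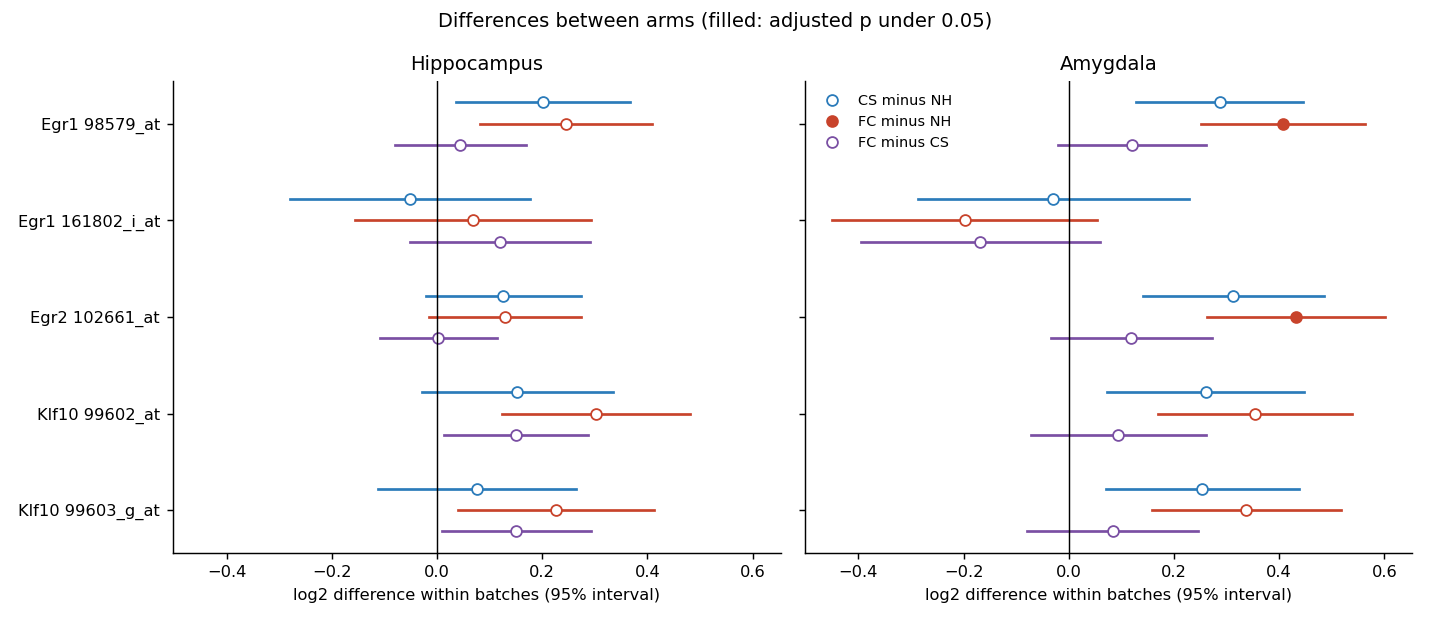
Fitted log2 differences between arms for each probe set in hippocampus (left) and amygdala (right), within batches, with 95% intervals; filled points have an adjusted p under 0.05. The filled points are Egr1 98579_at (0.41) and Egr2 102661_at (0.43) in amygdala FC minus NH.

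No FC minus CS difference of any member passed in either tissue. In amygdala these were 0.12 ± 0.0682 for Egr1 98579_at, with a 95% interval of -0.02 to 0.26, and 0.12 ± 0.0740 for Egr2, with an interval of -0.03 to 0.27. The Klf10 values were 0.09 and 0.08, with intervals of -0.07 to 0.26 and -0.08 to 0.25. In hippocampus the Egr1 value was 0.04, with an interval of -0.08 to 0.17. For Egr1 in amygdala, FC minus CS was 0.01 in batch 2 and 0.27 in batch 3, where the CS arrays read 8.19 to 8.31 against 8.44 to 8.61 in batch 2. The comparisons with NH share their NH arrays, so their agreement in sign is not independent.

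**Figure D3:**
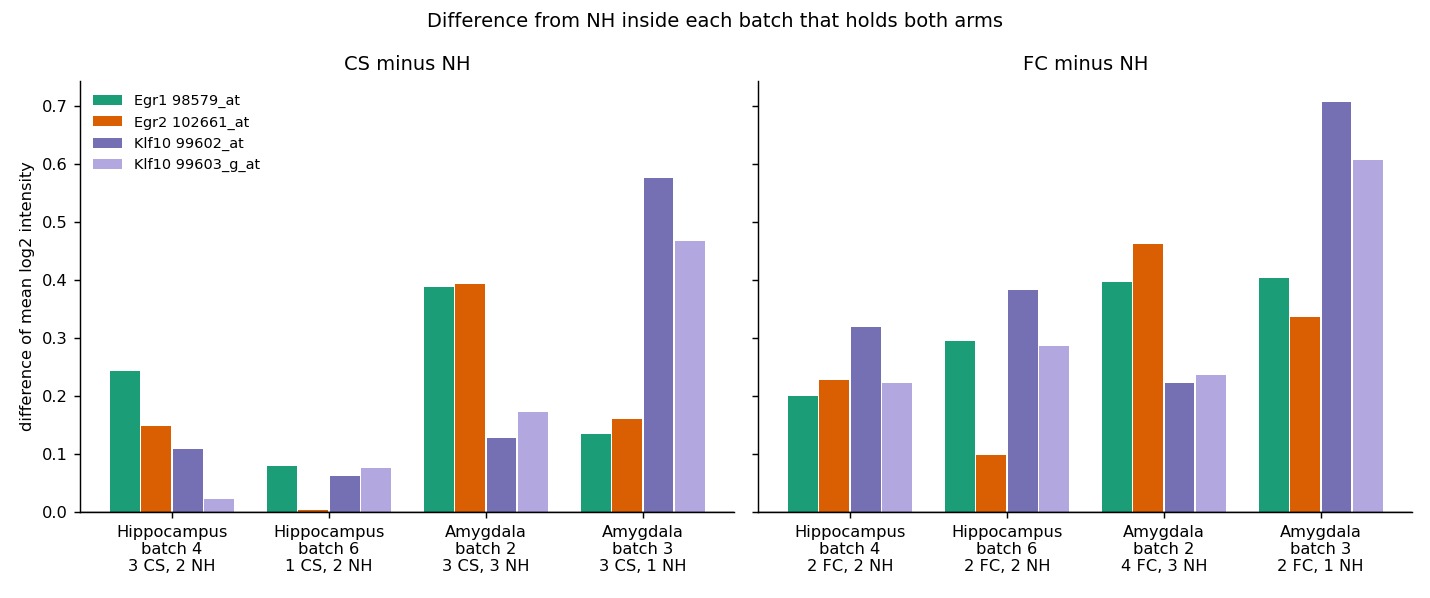
Difference of mean log2 intensity from NH inside each batch that holds both arms, for CS (left) and FC (right), with the number of arrays under each batch. Egr1 98579_at is at 0.40 in both amygdala batches for FC, while Klf10 99602_at is at 0.22 in batch 2 and 0.71 in batch 3, where 1 NH array is the base.

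The difference between tissues was tested itself. No member passed the test of a difference between amygdala and hippocampus in any of the 3 comparisons. In this test 0% of the 7242 probe sets kept in both tissues were called for CS minus NH, for FC minus NH and for FC minus CS. For FC minus NH, amygdala exceeded hippocampus by 0.16 for Egr1 98579_at, with a 95% interval of -0.06 to 0.39, and by 0.05 for Klf10 99602_at, with an interval of -0.21 to 0.31 (limma adjusted p = 0.981 and 0.982). For Egr2, which was below the filter in hippocampus, the fit over all probe sets gave 0.30, with an interval of 0.08 to 0.52, and this did not pass (limma adjusted p = 0.9999). This fit takes all arrays as independent, although title numbers link 9 amygdala arrays with 17 hippocampal ones. With linked arrays as a block, a setting chosen after seeing the data, the FC minus NH values were 0.16 for Egr1 98579_at and 0.30 for Egr2, and again neither passed (limma adjusted p = 0.966 and 0.9999). The call of Egr1 and Egr2 in amygdala and not in hippocampus is therefore not a shown difference between the tissues.

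The other immediate early genes give the setting in which the members were called. Of 35 listed, 28 were on the array under their listed symbol and 23 were bright enough to be tested in each tissue. Fos, the AP-1 subunit most used as an activity marker, was the only one called in hippocampus, where it rose by 0.98 in CS and by 1.09 in FC against NH (limma adjusted p = 0.00433 and 0.000555). In amygdala Fos rose by 1.15 in CS and 1.53 in FC. These values are those of the brighter of 2 Fos probe sets. The other was below the intensity filter in both tissues and differed from NH by 0.12 in CS and 0.03 in FC in amygdala and by -0.03 and 0.04 in hippocampus. In amygdala 4 more listed genes passed in FC against NH, namely Junb (0.53), Nr4a1 (0.44), Dusp1 (0.54) and Gadd45g (0.30). Together with Egr1 and Egr2 these 5 were the 7 probe sets called in that comparison. The median FC minus NH difference of the 23 was 0.19 in amygdala and 0.07 in hippocampus, against 0.01 and 0.00 over all probe sets tested. On this log2 scale the rise of Egr1 and Egr2 in amygdala was thus near that of Nr4a1 and below that of Fos.

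None of the listed relatives, partners and upstream regulators of the members passed in any comparison (limma). An unadjusted p under 0.05 (limma) in FC against NH was reached by 5.15% of all probe sets tested in amygdala and 2.27% in hippocampus. In amygdala the counts were 1 of 2 EGR relatives and corepressors, 0 of 8 KLF and SP genes and 0 of 6 upstream genes. In hippocampus they were 1 of 2, 0 of 10 and 1 of 7. Egr3 and Egr4 are not among the symbols named by a single-gene probe set here. NAB2, a corepressor that EGR proteins bind and whose gene they induce, had the largest value of its group, with Nab2 0.34 ± 0.0932 higher in FC than in NH amygdala (limma adjusted p = 0.560) and 0.19 ± 0.0886 higher in hippocampus, while Nab1 was at 0.05 and -0.12. Of the KLF and SP families, 14 of 21 were on the array and 8 were tested in amygdala. Of these, 1 was positive in FC minus NH and 7 were negative, where 55.2% of all probe sets tested were positive. Their range was -0.07 (Klf6) to 0.10 (Sp3), against 0.35 for Klf10. In hippocampus 10 were tested, with a range of -0.15 (Klf6) to 0.10 (Klf2). Of 24 genes upstream of EGR transcription, 6 were tested in amygdala and none was called, and Crebbp, the CREB coactivator, had the largest value at 0.08. In hippocampus 7 were tested, and Elk1, a ternary complex factor that acts with serum response factor, had the largest value at 0.22.

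Reported targets of the factors and genes of the TGF-beta pathway were likewise not called in any of the 6 comparisons (limma). In FC against NH, 5.15% of all probe sets tested in amygdala and 2.27% in hippocampus reached an unadjusted p under 0.05 (limma). In amygdala it was reached by 3 of 19 EGR1 targets, 0 of 5 EGR2 targets and 0 of 12 TGF-beta genes. In hippocampus the counts were 1 of 17, 1 of 5 and 0 of 12. Of 24 listed EGR1 targets, 19 were tested in amygdala. Their median FC minus NH difference was 0.03, against 0.01 over all probe sets. Of the 19, 11 were positive, where 55.2% of all probe sets tested were positive. The largest after Nab2 were Ptpn1, a tyrosine phosphatase, at 0.20 (limma adjusted p = 0.569) and Gadd45b at 0.18 (limma adjusted p = 0.781). In hippocampus 17 were tested, with a median of 0.05 and the largest value for Cdk5r1, the activator of the kinase CDK5, at 0.29. Of the 5 EGR2 targets tested, 1 was positive in amygdala FC minus NH, the myelin gene Mbp at 0.16, and the median was -0.04. Of the TGF-beta pathway around Klf10, 12 of 25 were tested, with median FC minus NH differences of -0.0031 in hippocampus and 0.0053 in amygdala. The ligand gene Tgfb1 was at -0.11 in amygdala and -0.03 in hippocampus, and the signal transducer Smad1 at 0.14 and -0.12.

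In amygdala, Egr1 and Klf10 correlated with Fos across arrays with and without the arm means subtracted, while Egr2 correlated with Fos only when the arm means were kept. For this description each batch's mean was subtracted from the arrays of the batch, and Pearson's r was taken between probe sets. The arrays in 1 correlation share their arms and tissue, and no p is given. Among 6693 other probe sets, the 5 whose pattern was most like that of Egr1 98579_at in the 22 amygdala arrays were those of Fos (0.936), Nr4a1 (0.934), Dusp6 (0.893), Dusp1 (0.876) and Errfi1 (0.853). Spearman's rho for Fos was 0.938, and r was 0.910 without the 2 arrays farthest from the Egr1 median. When the mean of each arm in each batch was subtracted as well, r of Egr1 with Fos was 0.862, and inside the 6 NH arrays of batch 1 it was 0.875. Egr1 thus tracked Fos among arrays of the same arm.

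For Egr2 in amygdala the most similar patterns were those of Rrp1b (0.792), Tpm4 (0.743), Gadd45g (0.732), Jun (0.728) and Pdgfra (0.725). Egr2 correlated with Fos at 0.702 and with Egr1 98579_at at 0.645 after batch means were subtracted. With arm means also subtracted, these became -0.10 and -0.01, and inside the 6 NH arrays of batch 1 they were -0.49 and -0.22. The probe set is dim, and how far its array-to-array variation is measurement noise was not tested.

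The 2 Klf10 probe sets were each other's closest pattern in both tissues, at 0.947 in amygdala and 0.855 in hippocampus. In amygdala the next after its partner was Errfi1, a feedback inhibitor of EGF receptor signalling, at 0.853 for 99602_at and 0.894 for 99603_g_at, followed by Mcl1 at 0.820 and 0.837. The remaining places were Adipor2 (0.790) and Ddx50 (0.772) for 99602_at, and Acaa2 (0.820) and Adipor2 (0.814) for 99603_g_at. Klf10 99602_at correlated with Fos at 0.756 and with Egr1 98579_at at 0.723, and with arm means subtracted these were 0.745 and 0.737. In the 26 hippocampal arrays the most similar patterns after its partner were Nr4a1 (0.773), Fos (0.731), Tiparp (0.702) and Xpo6 (0.698) for 99602_at, and Reps1 (0.755), Flcn (0.694), Tiparp (0.684) and Fos (0.659) for 99603_g_at. For Egr1 98579_at in hippocampus they were Asns (0.760), Nr4a1 (0.728), Tiparp (0.701), Wdr6 (0.695) and Pfdn6 (0.692), with Fos 11th at 0.667. Egr1 and Fos were at 0.450 there with arm means subtracted.

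**Figure D4:**
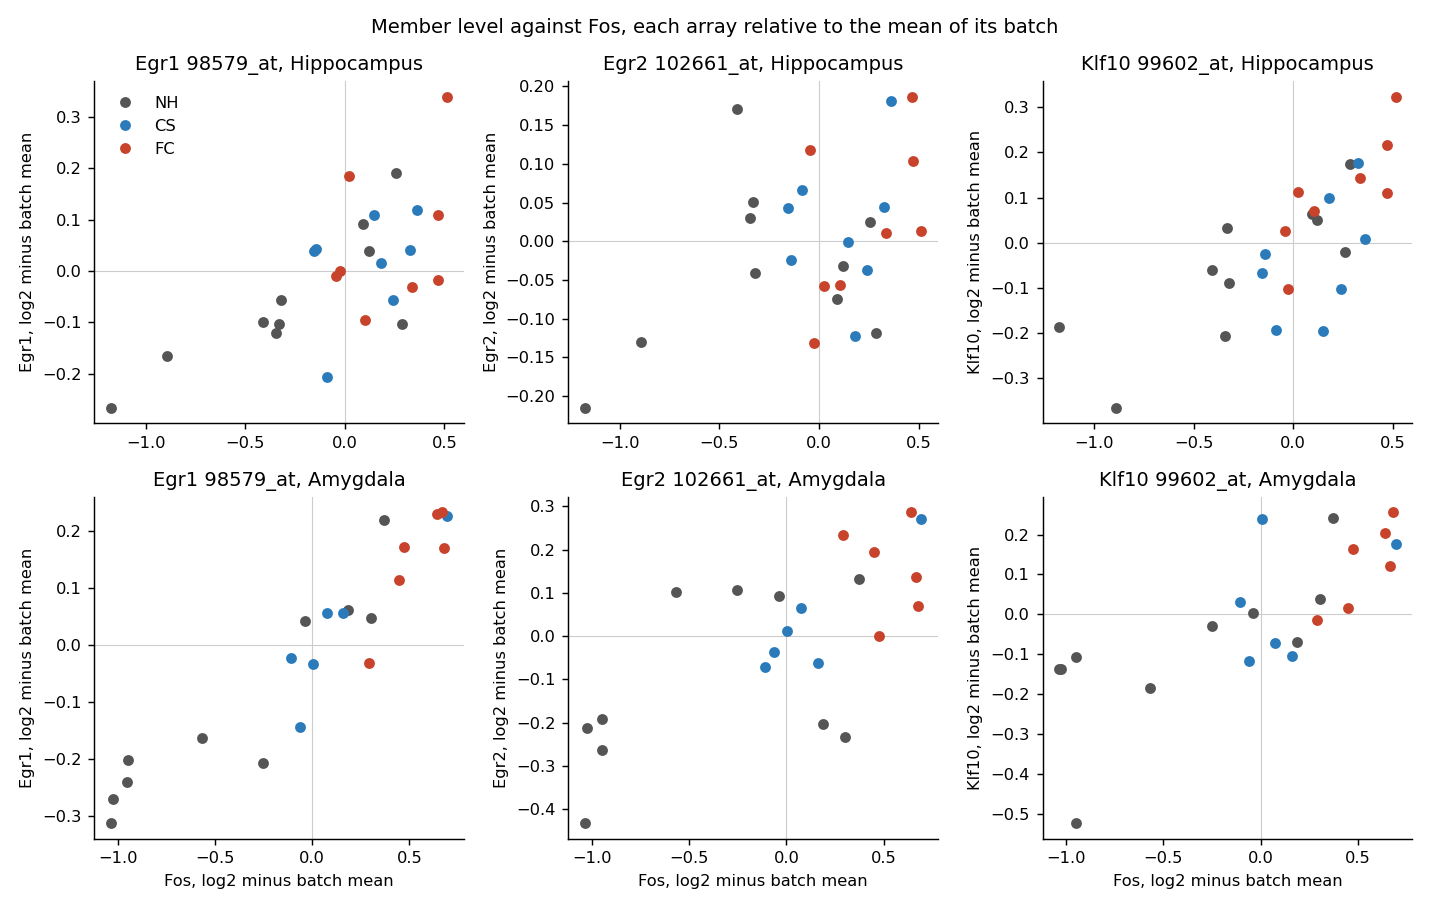
Egr1 98579_at, Egr2 102661_at and Klf10 99602_at (columns) against Fos in each array of hippocampus (top) and amygdala (bottom), each as log2 intensity minus the mean of its batch, coloured by arm. In amygdala the Egr1 points follow Fos (r = 0.936). For Egr2 the arms overlap in the plotted values, with r = 0.702. Once the mean of each arm in each batch is subtracted as well, which is not plotted, r for Egr2 is -0.10.

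Markers of other cell types were set beside these results. No marker of neurons of either region, of striatum, oligodendrocytes, astrocytes, microglia, vessels, choroid plexus, blood or immune cells was called in any comparison (limma). In FC against NH, 5 of 32 markers tested in amygdala and 0 of 39 in hippocampus had an unadjusted p under 0.05 (limma). Over all probe sets tested these shares were 5.15% and 2.27%. The 5 were Csf1r, C1qa and C1qb of microglia, Aldoc of astrocytes and Wfs1 of the hippocampal neuron list, all higher in FC. Of these, C1qb and Csf1r had a second probe set, which was at -0.15 for C1qb and 0.01 for Csf1r. In amygdala FC minus NH, the median difference was 0.13 over 5 microglial markers tested (-0.0044 to 0.16), 0.13 over 4 oligodendrocyte markers (-0.09 to 0.26), 0.05 over 5 astrocyte markers, -0.04 over 3 vessel markers and -0.08 over 4 blood markers. The oligodendrocyte value of -0.09 is that of Mag, whose other probe set was at 0.25. The part of these markers in the member differences was not tested.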

How the data were processed

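Total RNA was measured on 48 single-colour arrays. The authors deposited linear intensity values that the submitters' processing notes attribute to RMA, with version and settings not given in the sources used here. The deposited intensity values were converted to log2, and 66 of the 12488 rows, the array controls, were left out. Gene names came from the platform annotation: of the remaining 12422 probe sets 10833 named 1 gene, 396 several and 1193 none.

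Each tissue was fitted separately with limma 3.58.1 in R 4.3.3, with arm and processing batch as fixed terms, on the probe sets that remained once the dimmest 40% by mean log2 level had been removed. Member probe sets below that limit were read from the same fit without the limit. Tissues were compared in 1 fit of all arrays. The steps were tested on simulated data. RMA sets the arrays of a run to a common distribution, so a shift shared by all probe sets cannot be seen. The number of arrays limits the precision, above all that of the NH arrays in batches shared with CS or FC. Whether the title numbers pair the tissues was checked on deviations from arm and batch means: linked arrays correlated at -0.59 to 0.51, over 0.1 for 6 of 9.

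Members, gene lists and tests were chosen with earlier results of these data known. Named genes were all member probe sets, listed genes that passed or had the smallest p in a direction, the 5 nearest patterns of each member kept by the filter, and Fos. Alternatives covered the filter, the batch term, the arrays fitted, normalization, weights, the variance model and single arrays. A planned comparison of the members' protein sequences was not made here.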

Additional observations from a re-analysis of the deposited data

Results flagged for a closer look

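Egr2 102661_at in hippocampus CS replicate 109 read 5.62 on the log2 scale, with the next highest of the 8 CS arrays at 5.44 and a group median of 5.42. Its gap to the others passed Dixon's 95% limit. This was 1 of 30 member groups examined, where chance passes about 1 in 20.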

How the results depend on the processing

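Direction of Egr1 98579_at, Egr2 and both Klf10 probe sets against NH held under every alternative in both tissues. Calls did not.

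Without a batch term the counts of called probe sets became 7 and 7 (hippocampus CS and FC against NH) and 17 and 211 (amygdala), and the added member calls were Egr1 at 0.35 and 0.38 in hippocampus, Egr1 at 0.40 and Egr2 at 0.30 in amygdala CS minus NH, and Klf10 at 0.36 and 0.41 in amygdala FC minus NH. Array weights gave counts of 3 (hippocampus FC against NH), 5 and 911 (amygdala CS and FC against NH) and Klf10 at 0.48 and 0.42. The 60% filter drops Egr2 and also the brighter Fos probe set, which stood at the 48.9th percentile in hippocampus and the 55.0th in amygdala. Fos had been the only call in hippocampus CS and FC and amygdala CS against NH. With Fos untested these counts were 0, 0 and 0, which says nothing on whether its call would hold. Batch as a random block gave 4 (hippocampus FC) and 4 (amygdala CS), a fit of all 48 arrays 2 (hippocampus FC), and the fit of the CS and NH arrays alone 0 (hippocampus CS). Batch 4 alone gave 0 (hippocampus FC), batch 6 alone 7, 4 and 38 (CS and FC against NH, FC against CS), batch 2 alone 2 (amygdala FC) and batch 3 alone 1 and 1 (amygdala FC against NH and CS). Batch 6 has a single hippocampal CS array and batch 3 a single amygdala NH array, each assumed to vary like the other arms.

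The amygdala FC minus NH calls were lost within batch 2 (Egr1 0.40, Egr2 0.46) and batch 3 (0.40 and 0.34), which hold fewer arrays, and Egr2's with the 2 arms alone (0.43). Leaving out single arrays gave 0.38 to 0.45 for Egr1, 0.38 to 0.48 for Egr2, and counts of 0 to 1 (hippocampus CS against NH, 0 without NH 100), 1 to 2 (hippocampus FC, 2 without NH 111) and 4 to 9 (amygdala FC, 4 without NH 28892).

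Signs turned only in the following cases. Egr1 hippocampal FC minus CS turned in batch 4 (-0.043). Egr2 hippocampal FC minus CS turned in batch 5 (-0.064), under quantile normalization (-0.0046), median centring (-0.0060) and single omissions (-0.026 to 0.024). The dim 161802_i_at turned without a batch term (hippocampus FC minus NH -0.013, tissue difference in CS minus NH -0.19). It also turned in batch 4 alone (0.038, -0.0097 and -0.048) and with single arrays left out (CS minus NH -0.080 to 0.015 in hippocampus, -0.14 to 0.031 in amygdala). The cause of these changes was not tested. Arms of a tissue share no title numbers, so no pairing was possible between arms. Between tissues, arrays linked by title numbers were fitted as a random replicate block, chosen after seeing the data (consensus correlation 0.13). This gave 0, 0 and 0 calls of a tissue difference and changed no call. Its FC minus NH differences were 0.16 (Egr1), 0.30 (Egr2), and 0.05 and 0.11 (Klf10).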
